A study of Drosophila melanogaster with 16 samples.

Results

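The comparison described here set Drosophila melanogaster embryos with RNA interference against clamp beside control embryos, both collected 0 to 2 hr after egg laying. It was described across all genes with a mean of at least 20 normalized reads over both conditions, which were 7037 of the 15682 genes in the table. RNA was sequenced from 4 clamp RNAi and 4 control libraries of mixed sex embryos at this age, and from as many at 2 to 4 hr. All mothers were young virgin females crossed to yw males. Control mothers, named MTD control in the titles, carried a set of germline drivers: P{COG-Gal4:VP16}, then an insertion called P{Gal4-nos.NGT}40, and lastly P{nos-Gal4-VP16}. Mothers of the clamp RNAi embryos carried the same drivers, the first over an X chromosome marked y[1] sc[*] v[1], the middle one over a wild-type chromosome (+) and the last over the hairpin insertion P{TRiP.GLC01858}attP2. The drivers act in the mother's germline, so what was lowered is the RNA that the egg received, and a single insertion was used. The control strain label names no second chromosome, so the number of driver copies may differ between the genotypes.

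An egg of the fly is loaded by its mother with RNA and protein that run the first nuclear divisions, while the embryo's own genome is almost silent. Transcription from the zygotic genome starts during these divisions with a small set of patterning and cellularization genes, and becomes general when the cells form. CLAMP, a DNA-binding protein with zinc fingers, recognizes GA repeats; it is known for guiding the dosage compensation complex to the male X chromosome and for its place at the histone gene cluster. RNA measured at this age is therefore mostly maternal, and genes of differentiated tissues such as muscle and cuticle are normally off.

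The authors deposited, for each gene, the mean of normalized reads in a condition A and in a condition B, with their ratio and the adjusted p-value of their test. No header says which genotype is A or B; condition B is the one with far less clamp RNA and was taken as clamp RNAi on that ground alone, A as control, so the clamp level is no check of the labels; differences are given as B over A. In this table every condition mean up to 1000 is a sum of 4 whole read counts, each times the worth of 1 read in its library divided by 4, and all 9374 such means of A and 8483 of B matched exactly 1 combination. This gave the level in each library for 3778 genes, 53.7% of the 7037, while more abundant genes have only their condition means in at least 1 condition. The libraries are called A1 to A4 and B1 to B4 in the order of the worth of 1 read, from 0.925 to 1.11 normalized reads in A and from 0.808 to 1.13 in B; these are not the replicate numbers of the labels. Condition means summed to 14982606 normalized reads in A and 14929236 in B, and raw library totals are unknown. Library A3 stood apart: 1477 genes had reads in A3 and in no other library of A, against 83 to 391 for the others, and the lists of late-embryo genes were highest in it. Those genes are described separately after the maternal RNA, and results that rest on them are given with and without A3. Library A4 stood at the other end, with 368 of the split genes at least 4-fold under the mean of the other A libraries. Nothing in the labels says that libraries came from separate crosses, so p-values measure the spread between these libraries only, and in bulk RNA fewer cells of a type and less RNA per cell cannot be told apart.

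At an adjusted p under 0.05 in the authors' deposited table, 1417 of the 7037 genes (20.1%) differed, 691 higher in B (9.82%) and 726 lower (10.3%). In what follows, called, rose and fell refer to this test unless limma is named. Most differences were small. The median fold was 1.43 among the genes that were higher and 1.37 among those that were lower, and 58.6% and 70.1% of them were under 1.5-fold. At least 2-fold and called were 258 genes (3.67%), 153 higher (2.17%) and 105 lower (1.49%); 65 rose and 42 fell by at least 4-fold, and 20 rose and 8 fell by at least 16-fold. The median log2 difference over all 7037 genes was -0.01. Where each library could be read, most calls lay outside the spread of the libraries. Of the 3778 genes split by library, the authors called 629 (16.6%), 349 higher (9.24%) and 280 lower (7.41%), and in 338 and 264 of these all 4 libraries of B lay on 1 side of all 4 of A. The same separation was found in 753 split genes upward (19.9%) and 566 downward (15.0%), so 415 and 302 separated genes were not called by the authors. limma on log2 of the reads per library, with a Benjamini-Hochberg adjusted p under 0.05, called 1307 of the split genes (34.6%), 743 higher (19.7%) and 564 lower (14.9%), and these included 625 of the authors' 629.

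**Figure D1:**
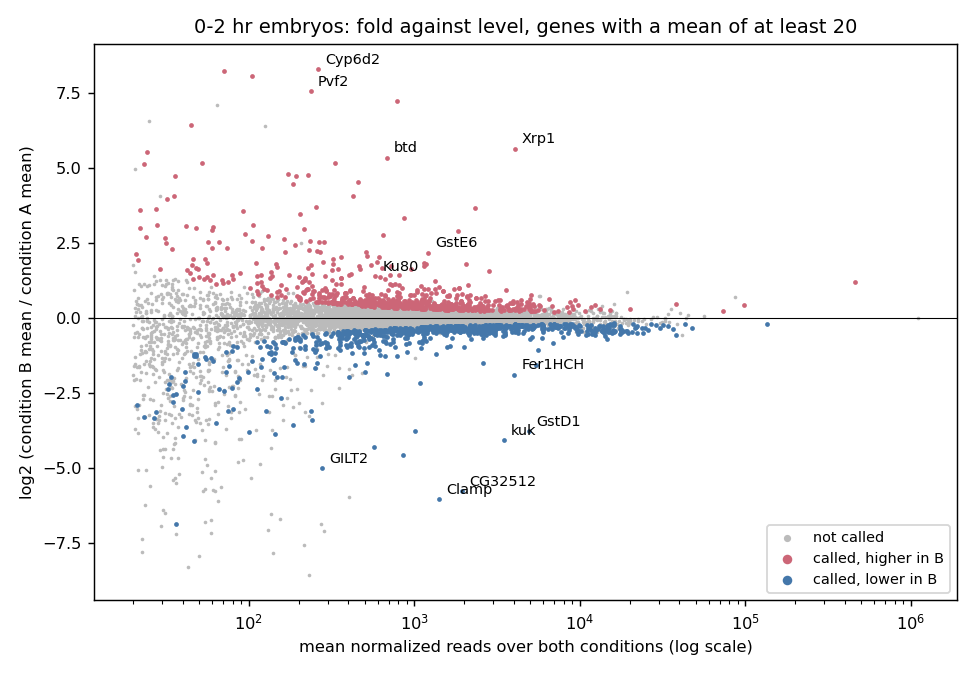
Log2 of the condition B mean over the condition A mean (vertical axis) against the mean normalized reads over both conditions (horizontal axis, log scale) for the genes with a mean of at least 20, coloured by the authors' call at an adjusted p under 0.05. Called genes with large folds lie on both sides, but folds narrow with level. At a mean of at least 2000 the 5th and 95th percentiles of log2 over all genes were -0.44 and 0.36. The grey cloud of large negative folds below a mean of about 500 holds uncalled genes, 189 of 327 of which stayed at least 2-fold lower without library A3.

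Clamp itself had the largest fall among calls at a mean of 500 or more. Its mean was 2789 normalized reads in A and 42.3 in B, a 66-fold fall that the authors' test (DESeq in the processing notes) called. Condition B was named by this low level, so the direction of the fall was set in advance and the call is no test. Its levels in the B libraries were 47.7, 61.9, 29.1 and 30.4, so some clamp RNA was read in each of them. The X-linked body colour gene yellow (y) was read 0, 0, 4.13 and 0 in A and 103, 80.1, 73.2 and 96.9 in B, and the eye pigment gene vermilion (v) 0, 0.938, 12.4 and 0 in A and 33.1, 44.6, 28 and 56.3 in B. All 4 libraries of B lay above all 4 of A for both, and both were called higher, with adjusted p of 6.2e-21 and 1.8e-05 in the authors' deposited table. Both genes mark insertions of the TRiP kind, so RNA from marker copies and RNA from the native genes cannot be told apart. The white gene (w), the marker of many other transgenes, fell 1.29-fold, from 2627 in A to 2038 in B. The authors' test called none of the other 6 measured GA-binding or pioneer factors: zld, the pioneer factor of the early embryo, had means of 14090.2 in A and 14275 in B, psq 9352 and 9381, and Trl, which encodes GAGA factor, 277 and 196 (adjusted p = 0.089 in the authors' deposited table). Trl levels were 288, 244, 309.8 and 268 in A and 226, 169, 167 and 221 in B, with every B library below every A library, and Trl was the 1 gene of the 3 split members of this list that limma called, as lower. Of 11 measured dosage compensation genes only Clamp fell and the chromatin kinase gene JIL-1 rose, 1.2-fold, by the authors' test (18.2% called, beside 20.1% over all genes). Means of msl-1, which encodes the scaffold of the complex, were 5423 and 5533.

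Genes of DNA damage were among the rises. Of 26 measured members of the p53, apoptosis and DNA damage list, 12 rose by the authors' test (46.2%, against 9.82% of all genes) and the other 14 were not called, and the median log2 was 0.27. The list holds Xrp1 and was drawn up with earlier results of these data known, so its share is a description and no test. limma on the 15 split members called 5 higher and 2 lower, the lower being the recombinase gene spn-A, with means of 568 in A and 448 in B, and the Bcl-2 family gene Buffy, with 79.1 and 48.7. Xrp1, which encodes a bZIP factor induced by irradiation and in losers of cell competition, rose 50.0-fold from 159 in A to 7931 in B, where the A libraries read 147, 120.1, 264 and 103. Its dimer partner Irbp18 had levels of 229, 201, 189 and 172 in A and 329, 372, 255 and 379.8 in B; every B library lay above every A library, with a 1.69-fold rise. Ku80 levels were 293, 328, 307 and 351 in A and 681, 881, 858 and 927 in B, a 2.62-fold rise with no overlap (adjusted p = 1.0e-19 in the authors' deposited table), and limma gave a log2 of 1.38 ± 0.10 (SE, n = 4 libraries a condition). Of its partners in DNA end joining, Irbp, the fly Ku70, rose 1.66-fold and the ligase gene DNAlig4 rose 2.02-fold. Of the MRN complex, which senses broken ends, rad50 rose 1.61-fold, mre11 1.61-fold and nbs 1.27-fold. The checkpoint kinase genes mei-41 (ATR) and lok (Chk2) rose 1.36-fold and 1.23-fold, and the caspase gene Dronc and its inhibitor gene Diap1 1.25-fold and 1.24-fold. The cell death activators were not called: rpr had means of 28.6 in A and 25.9 in B and hid 169.9 and 194, and the same held for p53 with 285 and 335. Outside that list, the nucleotide excision repair gene Xpc rose 2.96-fold, from 1429.9 in A to 4230.5 in B, next to CG8152, which rose 7.76-fold. Several of these genes, mei-41, nbs, DNAlig4, mre11, spn-A and Buffy among them, were named after their values were seen.

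The other stress lists were mixed. Of 20 measured genes of the integrated stress response and the unfolded protein response 6 rose and 5 fell. The sensor kinases rose, PEK 1.39-fold, Ire1 1.5-fold and Gcn2 1.46-fold, and so did Xbp1, the target of Ire1, 1.2-fold. The translation inhibitor gene Thor (4E-BP) fell 2.0-fold, from 247 in A to 124 in B, and the sensor gene Atf6 fell 1.3-fold; crc, which encodes the ATF4 factor, had means of 3219 and 3533 and was not called. Of 10 measured heat shock and chaperone genes 4 rose (40.0%, against 9.82% of all genes) and 6 were not called. The rises were led by the small heat shock gene Hsp23 (1.95-fold), while Hsp83 had means of 32778 and 35862 and was not called. Of 10 measured oxidative stress genes 3 rose and 7 were not called: Gclc, whose product makes the rate-limiting step of glutathione synthesis, 2.0-fold, the autophagy adaptor gene ref(2)P 1.3-fold, and cnc, the fly Nrf2 gene, 1.29-fold. Of 28 immune genes that the table holds, only 4 reached a mean of 20, and DESeq called none of them; at an unadjusted p under 0.05 the count was also 0, and limma called 3 higher on the split reads.

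Detoxification genes changed in both directions. Of 23 measured glutathione S-transferase genes, whose enzymes join glutathione to reactive compounds, 8 rose and 7 fell, which is 65.2% beside the 20.1% over all genes. The table holds 35 such genes. GstE3, GstE5 and GstE10, with A means of 9.58, 5.83 and 14.5, reached the mean of 20 through B. The share and the count of rises therefore include genes measured through B and are not read as traits of the family. The 8 that rose are all of the epsilon class, most of which lies in a cluster on arm 2R. GstE6 rose 4.49-fold, from 441 in A to 1979.7 in B, with 454, 422, 563 and 324 in the A libraries. GstE7 levels were 215, 206, 276 and 164 in A and 710.5, 781, 645 and 709 in B; GstE8 levels were 189.7, 195, 298 and 133 in A and 544, 588, 399.5 and 538 in B. Neither gene overlapped between conditions, and limma gave log2 values of 1.74 ± 0.14 (SE, n = 4 libraries a condition) and 1.38 ± 0.22 (SE, n = 4 libraries a condition). GstE10 had the largest fold of the class, 23.1, 25.3, 6.2 and 3.32 in A and 158, 173, 152 and 198 in B, which is 11.7-fold. Rises of 5.58-fold, 8.54-fold, 2.43-fold and 1.7-fold were called for GstE3, GstE5, GstE9 and GstE11, while GstE1, GstE12 and GstE13 were within 1.03-fold and not called. The 3 measured delta class genes, on arm 3R, all fell. GstD1, the most read gene of the class, fell 13.8-fold, from 9137 in A to 663 in B, with 838, 629, 561 and 624 in the B libraries. GstD3 fell 23.6-fold, from 1641 in A to 69.4 in B, and GstD9 levels were 218, 169, 193 and 177 in A and 45.3, 27.4, 25.8 and 46.2 in B, again with no overlap. GstD1 and GstD3 are close paralogs in 1 cluster, and reads that fit both could have been counted for either. GstT2 fell 3.89-fold, and GstS1, GstT3 and GstO2 fell 1.39-fold, 1.38-fold and 1.23-fold.

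Of 18 measured cytochrome P450 genes, which encode oxidases of lipids and foreign compounds, 6 rose and 2 fell (44.4% called, beside 20.1% over all genes). The table holds 84, and a gene that is low in A, such as Cyp6d2, was measured only through B. Cyp6d2 had the largest log2 difference of any called gene, 8.29: it was read 5.55, 0, 0 and 1.11 in A and 417, 553, 586 and 533 in B. It was close to absent from A and present in every B library, and limma on log2 of normalized reads plus 1 gave a log2 of 8.07 ± 0.58 (SE, n = 4 libraries a condition). Cyp6d4 rose 2.65-fold from 142, 163, 131 and 199 to 377, 452, 426 and 427, and Cyp4e2 rose 1.45-fold; Cyp6a19 fell 1.6-fold. The P450 list also had its highest summed A level in A3, at 2143 against 1605 to 1671 in the other A libraries, and all 4 B sums, from 2337 to 2639, lay above them. Of 6 measured UDP-glycosyltransferase genes, whose enzymes attach sugars to small molecules, 2 rose and 2 fell (66.7% called, beside 20.1% over all genes). Ugt50B3 levels were 80.5, 90.1, 136 and 80.8 in A and 436, 426, 476 and 428 in B, and Ugt302C1 rose 3.51-fold, from 507 in A to 1779 in B. Ugt36E1 fell 1.8-fold.

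**Figure D2:**
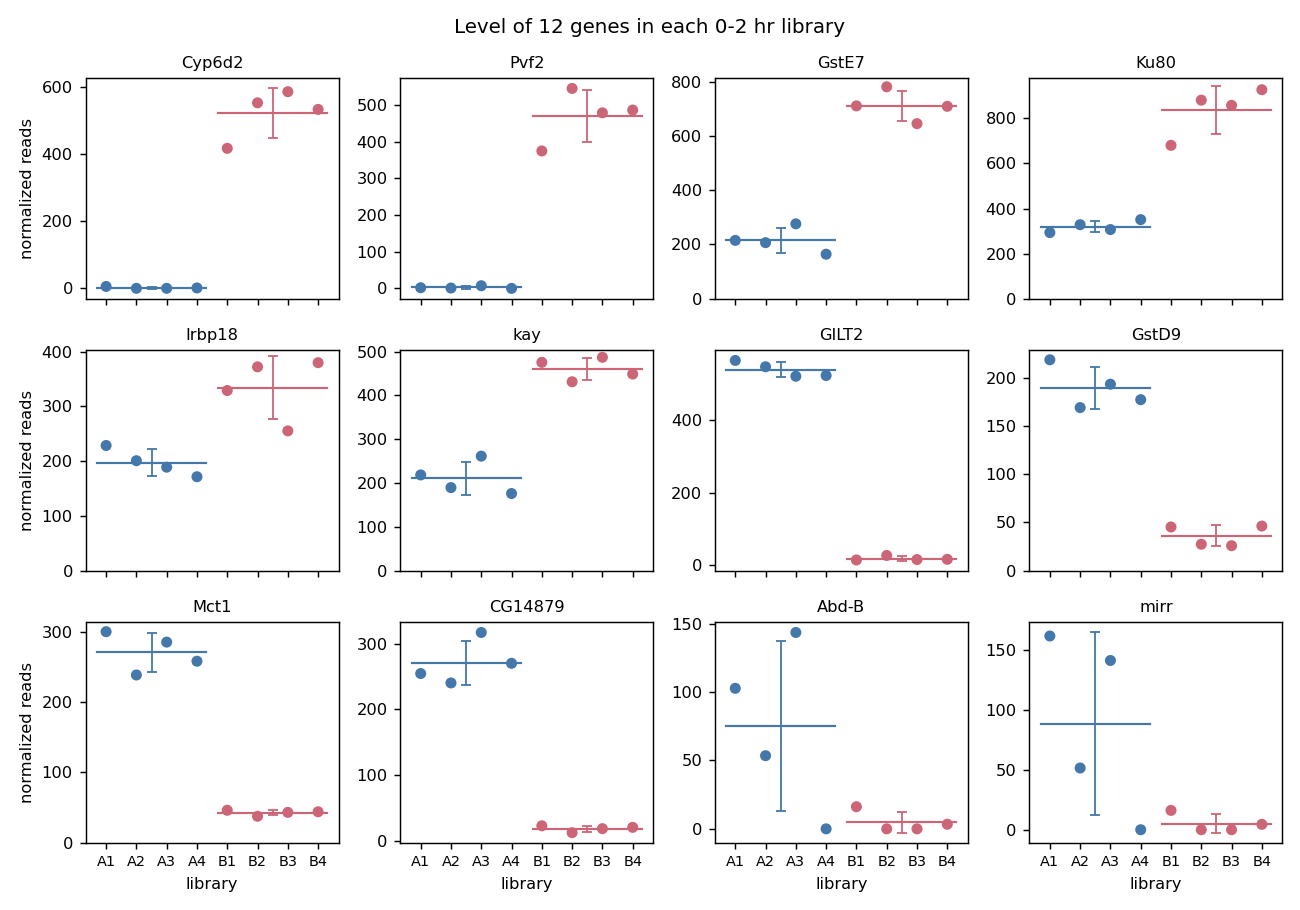
Normalized reads (vertical axes, linear and different for each gene) of 12 genes in the 4 libraries of condition A (blue) and the 4 of condition B (red); lines give the mean and bars the SD over 4 libraries. Cyp6d2 and Pvf2 were near 0 in A, GILT2 and CG14879 were low in every B library, and Abd-B and mirr were at 0 in library A4 and in B2 and B3, so that their conditions overlapped.

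Further genes went from almost no reads to clear expression in B. Pvf2, CG13857, CG12290, CG12224, CG13856, CG14110 and FBgn0028993 were under 20 in A. They reached the mean of 20 through B, so a rise was the only outcome they could show. Pvf2, which encodes a ligand of the PDGF and VEGF type, was read 1.85, 0.938, 7.23 and 0 in A and 374, 545, 478 and 486 in B. Of its pathway neighbours, Pvf1 fell 1.37-fold with 628, 603, 539 and 681 in A and 432, 465, 451 and 438 in B, and kay, the fly Fos gene, rose 2.18-fold. Stat92E, the transcription factor of JAK/STAT signalling, fell 1.19-fold. Of the 12 measured genes of these pathways 7 were not called and 41.7% were called, beside 20.1% over all genes. Odorant-binding protein genes, known for small secreted carriers in the antennae, number 51 in the table, of which 4 reached a mean of 20; the 3 that were called higher reached it through B alone, so their count is not read. Obp56d had 2 reads in all of A and levels of 176, 124, 87.2 and 180.3 in B, a ratio of 302 with a 95% exact interval for counting error of 83.3 to 2503. Obp44a was read 3.7, 3.75, 6.2 and 2.21 in A and 101, 60.8, 39.8 and 63.1 in B, and Obp56a 0.925, 0, 6.2 and 3.32 and 100.2, 55.8, 45.2 and 73.3. CG13857 had 3 reads in A, all in library A3, and levels of 307, 173, 155 and 198 in B, a ratio of 269 with a 95% exact interval for counting error of 91.8 to 1308. CG12290 rose 149.9-fold, from 10.4 in A to 1555 in B, CG12224 46-fold, CG13856 35.3-fold and CG14110 36-fold. Among abundant genes, Arc1, whose product forms capsids like those of a retrovirus, rose 6.76-fold from 167 in A to 1131 in B; its A levels of 184, 360.3, 34.1 and 90.8 varied widely and all lay under the B mean. CG42342 levels were 196, 139.8, 256 and 134 in A and 854, 718, 940.1 and 826 in B, and Dhit levels 180.5, 388, 90.9 and 148 and 863, 841, 827 and 809; both separated the conditions. The noncoding lncRNA:CR40469 rose 12.6-fold in the means, but its A libraries read 339, 854, 4.13 and 165, a wide spread. FBgn0028993 and FBgn0038347, to which the name table gives no symbol, rose 35.5-fold and 10.1-fold.

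GILT2 and GILT3, which encode thiol reductases that open disulfide bonds, were among the largest falls. Both, like CG14879 below, were under 20 in B and reached the mean of 20 through A. GILT2 levels were 566, 549, 523 and 525 in A and 12.9, 25.4, 14 and 14.7 in B, a 32.3-fold fall and by limma a log2 of -4.98 ± 0.21 (SE, n = 4 libraries a condition). Its neighbour GILT3 was read 77.7, 161, 20.7 and 28.8 in A and had 3 reads in B, all in library B1, which gives a ratio of 119 with a 95% exact interval for counting error of 40.3 to 580.3; GILT1 fell only 1.15-fold. kuk, which encodes a nuclear envelope protein needed for nuclear elongation when cells form, fell 16.9-fold from 6571 in A to 389 in B, and its B libraries read 531, 306, 351 and 369.6. CG32512 fell 55.3-fold from 3836 in A to 69.3 in B, CG2187 19.9-fold from 1090.2 in A to 54.7 in B, and CG14879 levels were 254, 240.2, 317 and 270.1 in A and 22.6, 12.2, 18.3 and 20.3 in B. Lac, which encodes Lachesin of the septate junctions, fell 13.6-fold from 1874 in A to 137 in B, with 192, 97.4, 66.8 and 193 in B. Both secreted ferritin chains, which store iron, fell: Fer1HCH 3.71-fold from 6321 in A to 1702 in B and Fer2LCH 3.0-fold from 8155 in A to 2720.2 in B. Their genes overlap on opposite strands in the annotation and the counting is not stated to use strand, so reads of the shared part cannot be told apart. The carbonic anhydrase gene CAH2 fell 3.65-fold, the monocarboxylate transporter gene Mct1 6.34-fold from 299.8, 238, 285 and 258 to 46.1, 37.5, 43.1 and 44, and the tetraspanin gene Tsp96F 1.99-fold. The noncoding lncRNA:CR42862 fell 4.5-fold.

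Maternal axis, germ plasm and piRNA genes were called about as often as genes in general, where 20.1% were called. Of 21 measured maternal axis genes 1 rose and 3 fell (19.0%), with a median log2 of 0.01; the summed level of the 9 of all 23 listed genes in the table that could be read by library, at any mean, was 2380.2, 2346, 2410.4 and 2372 in A and 2487, 2320.2, 2377 and 2368 in B. The conditions overlapped in this sum, and libraries A3 and A4 did not stand apart. The posterior determinant osk had means of 14377 and 15142 and was not called. The falls were of cact, the inhibitor of the Dorsal gradient (1.29-fold), the receptor gene Tl (1.26-fold) and the posterior gene cad (1.25-fold). The rise was of ndl, a protease gene of the eggshell pathway that sets the dorsoventral axis, from 9.25, 34.7, 10.3 and 12.2 in A to 109, 74, 81.8 and 122 in B. The A mean of ndl was under 20, so it reached the minimum mean through B. Of 15 measured germ plasm genes 2 rose and 1 fell; vls, whose product is needed to assemble the pole plasm, went from 107, 116, 95 and 119.5 to 325, 356, 359.7 and 336, a 3.14-fold rise with no overlap, and tud rose 1.34-fold. Of 17 measured piRNA pathway genes 2 rose and 2 fell (23.5%): the cluster-binding gene rhi fell 1.88-fold, from 465, 529, 578 and 448 to 265, 294, 254 and 261, and mael fell 1.5-fold, while the helicase gene spn-E and piwi rose 1.41-fold and 1.29-fold. Of 16 measured genes of the machinery that clears maternal RNA 4 rose and 1 fell (31.25% called, beside 20.1% over all genes). The rises included the repressor gene brat (1.18-fold) and the deadenylase subunit genes Not3 (1.21-fold) and Pop2 (1.19-fold), and plu fell 1.38-fold. At an adjusted p under 0.01 the calls in this list went from 5 to 2.

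Of 28 measured cell cycle genes 9 fell (32.1%, against 10.3% of all genes) and 1 rose (3.57%, against 9.82%), with a median log2 of -0.13 and folds that stayed under 1.5. borr, of the chromosomal passenger complex, fell 1.47-fold, the replication licensing inhibitor geminin 1.41-fold, CycB3 1.37-fold and the Cdc25 phosphatase gene stg 1.27-fold. Of 21 replication and chromatin assembly genes 3 rose (14.3%) and 2 fell (9.52%), near the shares over all genes. PCNA and Mcm7 fell 1.34-fold and 1.39-fold, and both subunits of the histone chaperone FACT, Ssrp and dre4, rose 1.49-fold and 1.4-fold. Of 12 insulator genes 4 fell (33.3%, against 10.3% of all genes) and 8 were not called. Ibf1 levels were 740.3, 657, 796 and 709.5 in A and 452, 395, 398 and 426 in B, and those of its partner Ibf2 499.7, 447, 600.0 and 359.7 and 321, 322, 253 and 282; neither overlapped. mod(mdg4) and BEAF-32 fell 1.41-fold and 1.25-fold, while CTCF, su(Hw) and Cp190 were not called. The variant histone gene His2Av fell 1.54-fold and His4r 1.58-fold; His4r encodes the same protein as the copies of the histone cluster, so its reads are uncertain. Of 11 histone locus body genes Lsm10, of the U7 particle, fell 1.81-fold (222, 194, 217 and 224 in A and 109.9, 133, 104 and 126 in B), Cdk2 fell 1.2-fold and FLASH rose 1.33-fold. These calls were 27.3% of that list, beside 20.1% over all genes. Of 24 Polycomb and trithorax genes 12.5% were called, beside 20.1% over all genes. The 2 rises were of E(z) 1.4-fold and Su(z)12 1.24-fold, both of the complex that methylates histone H3, and ph-d fell 1.4-fold.

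RNAs for making and breaking protein moved by small folds but in many genes. Of 81 measured cytosolic ribosomal protein genes 46 fell (56.8%, against 10.3% of all genes) and 35 were not called, with a median log2 of -0.37; RpS20 fell 1.42-fold, RpL12 1.3-fold and RpS3 1.24-fold. Of 70 mitochondrial ribosomal protein genes 13 fell by the authors' test (18.6%, against 10.3% of all genes) and 57 were not called, with a median of -0.19; limma called 25 of the 66 split members lower and 1 higher, where it called 14.9% of all split genes lower. Among them mRpL36 levels were 428, 392, 424 and 313 in A and 214, 215, 165 and 186 in B. Of 57 nuclear genes of oxidative phosphorylation 20 fell (35.1%, against 10.3% of all genes) and 37 were not called, with a median of -0.25. ATPsynC of the ATP synthase fell 1.27-fold. From the mitochondrial genome 3 of 15 measured genes rose and 12 were not called: mt:Cyt-b 1.36-fold, mt:CoI 1.36-fold and mt:CoIII 1.17-fold. Members of the lists that fell are short, with median exon lengths of 944, 783 and 842 bases. Among all genes with a mean of at least 500, those with the shortest exons (1074 genes) had a median log2 of -0.15, with 245 lower and 47 higher, while the 3 classes of longer exons had medians of 0.01 to 0.07; the part of length in these lists was not tested. Aminoacyl-tRNA synthetases, which charge tRNAs, went up in 9 of 31 genes (29.0%, against 9.82% of all genes). The other 22 were not called, and the median was 0.24. AlaRS rose 1.59-fold and HisRS 1.56-fold, and the summed level of the 15 split members was 5817, 5817, 5690.3 and 5753 in A and 6378, 6712, 6780.1 and 6707 in B, with no overlap. Of 40 translation factor genes 8 rose and 3 fell; eIF6, a factor of the large ribosomal subunit, rose 1.63-fold and eEF1beta fell 1.25-fold. Of 32 proteasome genes 8 rose, such as Rpn8 at 1.33-fold and Rpt5 at 1.29-fold, and 1 fell.

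**Figure D3:**
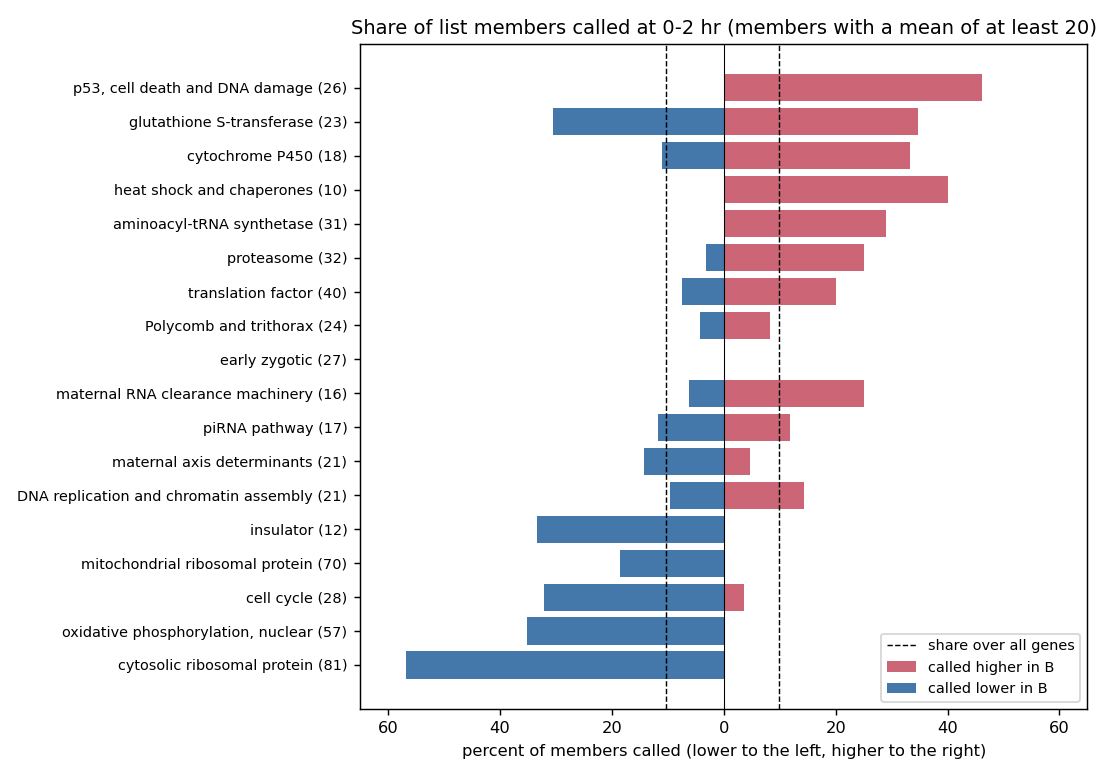
Percent of the measured members of gene lists (number in parentheses) that the authors called higher in B (red, right) or lower in B (blue, left), with dashed lines at the share over all genes, 9.82% higher and 10.3% lower. Ribosomal protein and oxidative phosphorylation genes were called lower and never higher, p53 and DNA damage genes and tRNA synthetases higher and never lower, and glutathione S-transferases in both directions. The lists were chosen with earlier results of these data known, so the shares are a description and no test.

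Of 27 measured early zygotic genes, the first that the embryo transcribes, none passed the authors' DESeq test; at an unadjusted p under 0.05 there were 3 lower and 0 higher, and limma called 1 of 24 split members, which was lower. Their median log2 was -0.33, or 0.00 at a minimum mean of 100, and single values ran from -2.31 to 0.84. The summed level of the 28 early zygotic genes read by library, at any mean, was 2358, 3129, 3061 and 1509.8 in A and 2722, 1601, 1629 and 1717 in B. The libraries overlapped: B1 lay within the range of A1 to A3, and A4 was the lowest of all. Of cellularization genes kuk fell and the kinase gene Abl rose 1.5-fold (8.33% called, beside 20.1% over all genes). The other 22 of 24 were not called, slam with means of 2130.4 and 2294 among them. Single patterning genes passed the test. btd, a head gap gene that encodes a zinc finger factor of the Sp family, rose 40.6-fold from 32.8 in A to 1331 in B, with 43.5, 40.3, 33 and 14.4 in the A libraries. The Wnt receptor gene fz2 was read 364, 288, 541 and 198 in A and 899.6, 797, 926 and 939 in B, a 2.56-fold rise with no overlap. vn, which encodes a ligand of the EGF receptor, was read 261, 212, 407 and 230.2 in A and 137, 81.1, 100.2 and 95.8 in B, a 2.68-fold fall with no overlap. The summed pair-rule level was 647, 653, 1052 and 121 in A and 472, 253, 264 and 316 in B, and DESeq called 0 of 9 measured members, with 2 lower at an unadjusted p under 0.05 and 0 by limma.

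Genes of later patterning had lower means in B but varied with the library. The summed Hox level was 644, 421, 989 and 53.1 in A and 208, 77.1, 70.0 and 82.3 in B: A1, A2 and A3 lay above all B libraries, and A4 lay below all of them. Of 6 measured members of this list, Abd-B alone was called. Abd-B was read 103, 53.5, 144 and 0 in A and 16.2, 0, 0 and 3.38 in B; mirr of the Iroquois genes 162, 51.6, 141 and 0 and 16.2, 0, 0 and 4.51; the cadherin gene ft 299, 126, 319 and 4.43 and 36.4, 2.03, 6.46 and 9.02; and Doc1, a T-box gene of the dorsal ectoderm, 80.5, 39.4, 69.2 and 5.53 and 9.7, 6.08, 3.23 and 0. In each of these 4 genes A4 was as low as the B libraries while A1 to A3 were high. The authors' deposited table calls them with adjusted p between 0.021 and 0.047, but limma on the split reads called only Doc1 with all libraries and none of the 4 without A3, where the log2 of the means was -3.41, -3.78, -3.41 and -3.14 in that order. The other 62 called and split genes named by the rules kept a limma call in the same direction without A3. Head gap, trunk gap, segment polarity and dorsoventral lists had median log2 values of -0.23, -0.88, -1.62 and -0.95, with 2, 0, 1 and 0 members called higher and 0, 1, 0 and 2 lower. At a minimum mean of 100 these medians were 2.85, -0.23, -0.34 and -0.05, and that of the pair-rule list went from -1.21 to 0.01. The head gap value then rests on btd and cnc alone, with log2 values of 5.34 and 0.37, and is no trait of the list. The pair-rule median came close to 0.

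Late-embryo RNA was found mainly in library A3, and it is kept apart from the changes above. Among the split genes 186 (4.92%) were at least 4-fold over the mean of the other A libraries in A3. They were chosen by their levels in A, so their differences between A and B are not read. The summed level of 17 late muscle genes was 547, 241, 12786 and 148 in A and 406, 175, 163 and 1143 in B. A3 was far above all others, and B4 was the highest of B. Late epidermis and trachea genes summed to 846, 613, 4863 and 358 in A and 338, 167, 146 and 272 in B, and cuticular protein genes to 93.5, 91, 4650.3 and 73.1 in A and 556, 334, 209 and 379.8 in B. Without A3 the cuticular sums of A lay below all those of B, while the epidermal sums of A still lay above them. Hemocyte and fat body genes summed to 1159, 514, 4119.5 and 182 in A and 506, 241, 264 and 419 in B, and late neuron genes to 837, 428, 2136 and 227 and 541, 291, 251 and 369.6. The actin gene Act57B of muscle was read 61.1, 0, 3103 and 0 in A and 49.3, 0, 0 and 1.13 in B, and the myosin gene Mhc 0.925, 0, 1143 and 0 and 16.2, 3.04, 0 and 256. The secreted chitin-binding protein gene Gasp of the trachea was read 3.7, 1.88, 1078 and 0 in A and 4.85, 1.01, 0 and 5.63 in B; Osi6 and Osi7, of a family expressed in cuticle-forming cells, were read 2171 and 2273 in A3 and at most 18.6 in any other library. None of these 5 was called by the authors; Act57B, Mhc, Osi6 and Osi7 were chosen after their values were seen.

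Taking A3 away moved the medians over split members of late muscle from -2.82 to 3.64, of late epidermis and trachea from -5.11 to 0.47, of hemocyte and fat body from -2.96 to -0.38, of late neuron from -1.06 to -0.08, and of Hox from -3.43 to -2.89. Without A3 the sign turned for muscle and epidermis and the neuron median came close to 0, while the Hox median stayed low. The muscle ratios then include A levels near 0: Mhc was read 0.925, 0 and 0 in A1, A2 and A4, and 256 in B4. The muscle sum was 1143 in B4 against 163 to 406 in the other B libraries. Epidermal sums of A1, A2 and A4, from 358 to 846, stayed above all B sums, opposite to the turned median. Neither turned sign is read as a direction of its list. Among members that were called, the chitinase gene Cht2 was read 373, 434, 392 and 333 in A and 128, 111, 90.5 and 152 in B, a 3.19-fold fall in which every B library lay below every A library and A3 did not stand apart. Tm1, a tropomyosin gene also read at high level in eggs, fell 1.27-fold from 9153 in A to 7226 in B. Uncalled large falls rested on A3 in part: 328 genes were at least 2-fold lower in B and not called, against 31 that were at least 2-fold higher, and of the 327 that could be split 189 stayed at least 2-fold lower without A3. Genes with a mean of 20 to 100 showed it as a group, with a median log2 of -0.54 over 810 genes and -0.15 without A3, while all bins above 100 had medians between -0.02 and 0.03. Eggshell and follicle cell genes marked other libraries: their sums were 21.3, 2639, 25.8 and 35.4 in A and 56.6, 383, 1902 and 92.4 in B, high in A2 and B3; DESeq called 0 of 10 measured members, with 2 higher at an unadjusted p under 0.05 and 2 higher by limma. Sperm and testis genes stayed low, at 44.4, 26.3, 64 and 45.4 in A and 55, 46.6, 48.5 and 55.2 in B.

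**Figure D4:**
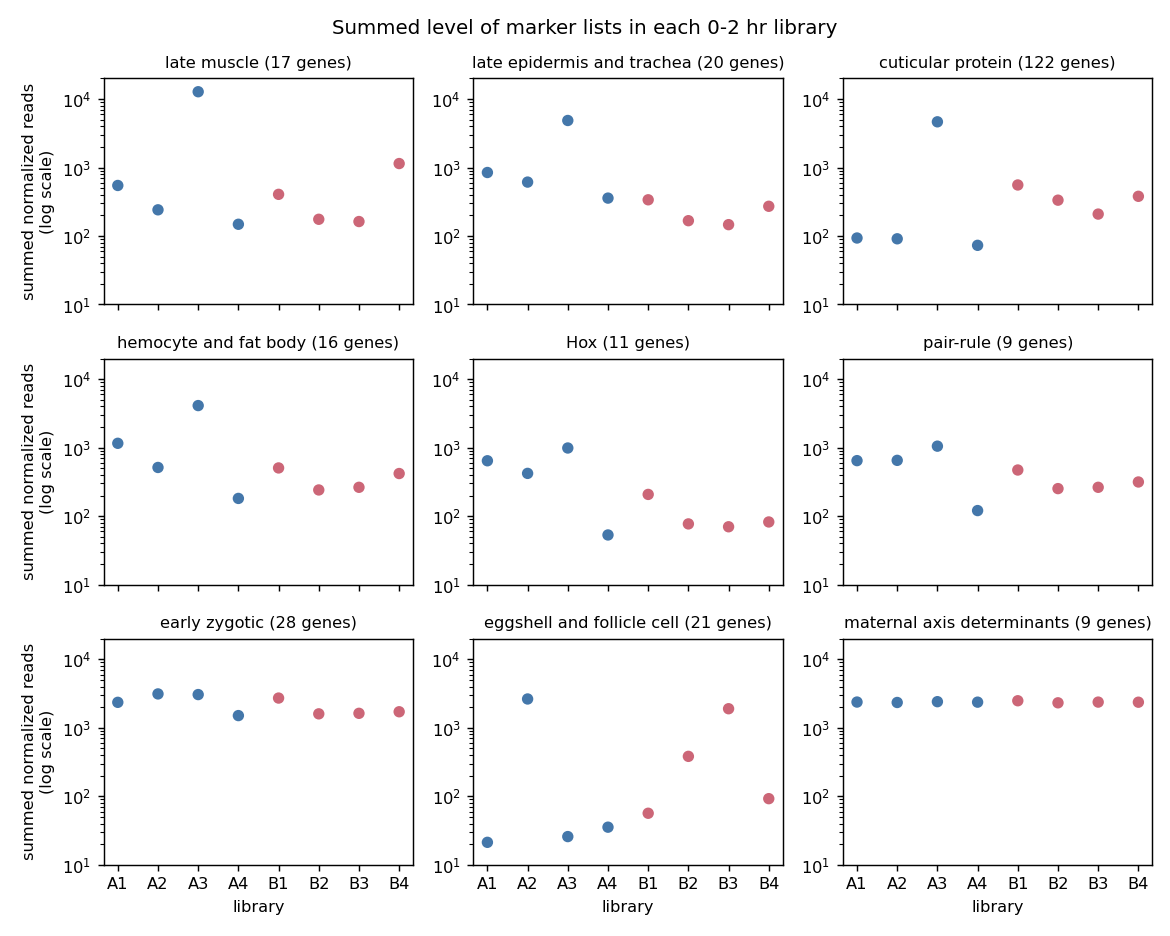
Summed normalized reads (vertical axes, log scale) of marker lists in each library of condition A (blue) and condition B (red), over the members that could be read in all 8 libraries. Library A3 is high for muscle, epidermis, cuticle and hemocyte genes, A4 is low for Hox and pair-rule genes, A2 and B3 are high for eggshell genes, and the maternal axis sums are level across the 8 libraries.

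**Figure D5:**
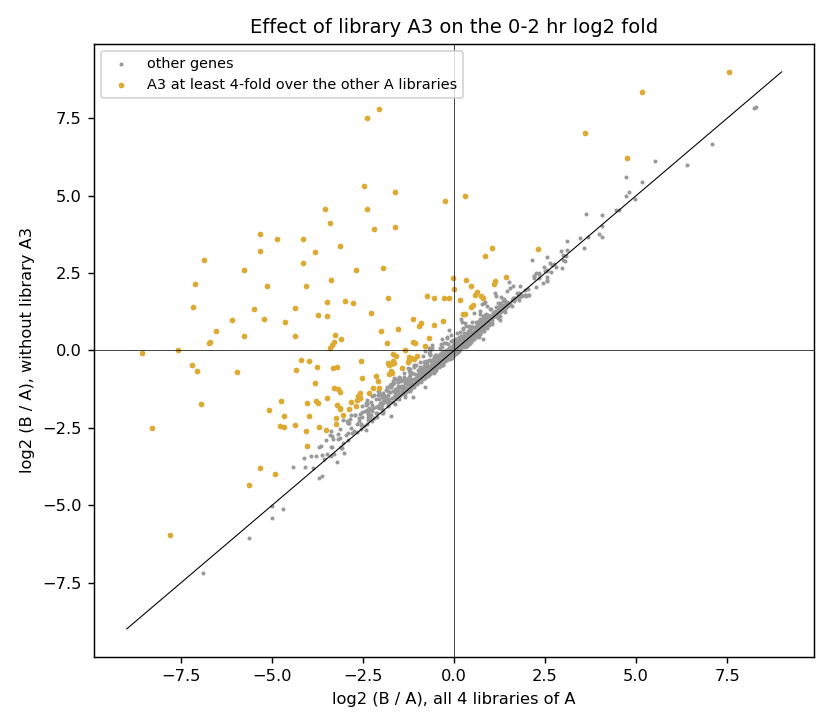
Log2 of B over A computed without library A3 (vertical axis) against the same with all 4 libraries of A (horizontal axis) for the split genes with reads in both; the diagonal marks equal values. Genes that are at least 4-fold over the other A libraries in A3 (yellow) lie above the diagonal by construction, since they were chosen for their A3 level; the plot shows where their values go, and the other genes (grey) stay near it.

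Called genes of at least 2-fold were neighbours in some cases. Of 241 such genes placed on the BDGP6 annotation, which was used for order only, 27 (11.2%) formed 15 pairs with the gene beside them on either side; of the other 6452 measured and placed genes, 204 (3.16%) had such a called gene on either side. In 12 pairs both moved the same way, 9 up and 3 down. The run GstE5 to GstE9 gave 4 of the pairs that rose; CG8152 and Xpc, Galt and Spn27A, CG18547 and CG12224, CG7069 and CG18596, and CG11638 and CG32814 gave the others, the last of which overlap. Galt, of galactose metabolism, was read 33.3, 11.3, 80.6 and 6.64 in A and 92.9, 106, 78.6 and 77.8 in B, and Spn27A, which encodes a serpin that restrains Toll signalling, rose 2.33-fold. GILT3 and GILT2, GstD9 and GstD1, and the ferritin genes fell as pairs. In 3 pairs the neighbours moved in opposite directions. tara was read 235, 162, 211 and 142 in A and 107, 72, 82.9 and 76.6 in B while asun was read 128, 180.2, 83.7 and 137 and 516, 483, 538 and 504. CG3457 rose 5.4-fold beside Mct1, which fell, and Kaz1-ORFB rose 2.83-fold beside the TRP channel gene pyx, which fell 3.5-fold and overlaps it on the other strand. Of 63 measured genes on chromosome 4, 5 rose and 1 fell by at least 2-fold (9.52%), against 2.58% to 4.41% on the other arms; the X had 3.49% and a median log2 of 0.00.

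The 2 to 4 hr libraries are other samples and show which changes were found again later. Among the 7037 genes the authors called 930 higher (13.2%) and 1068 lower (15.2%) at 2 to 4 hr. Of the 691 genes higher at 0 to 2 hr 312 (45.2%) were called higher again and 45 lower, and of the 726 lower genes 206 (28.4%) were called lower again and 41 higher. Among changes of at least 2-fold at 0 to 2 hr, 127 of the 153 genes that rose (83.0%) and 86 of the 105 that fell (81.9%) were called the same way. Seen from 2 to 4 hr, genes called at 0 to 2 hr made up 31.8% of the 968 higher genes and 18.0% of the 1142 lower ones. Of the 7037 genes, 9.82% were called higher and 10.3% lower at 0 to 2 hr. Xrp1, Pvf2, Cyp6d2 and Clamp had log2 values of 4.69, 7.51, 8.85 and -5.28 at 2 to 4 hr, beside 5.64, 7.55, 8.29 and -6.04 at 0 to 2 hr, all called. btd and kuk were called with 1.36 and -1.80 beside 5.34 and -4.08. fz2, with -0.11, and vls, with 0.61, were not called at 2 to 4 hr, and neither were the falls of RpS20 and borr, at 0.27 and -0.01. Whether the differences changed between the ages was not tested.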

How the data were processed

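The 8 libraries of 0 to 2 hr embryos were used, with the 2 to 4 hr table for recurrence. Per the labels' protocols, libraries came from total RNA with an Ovation kit of NuGEN that removes ribosomal RNA. DESeq, HTSeq 0.5.4p3 and TopHat2 2.0.13 are listed in the submitters' processing notes beside the build dm3, with no statement of what each one did.

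Per the file headers, the authors deposited for each gene the condition means as a normalized signal, the fold as a ratio of B over A, its log2 value, and the p-value of the comparison before and after adjustment. The calls are those of the authors' adjusted p under 0.05, adjusted over 13096 tested genes; the design had a count test for tables of counts per library, and these are comparison tables. The headers name the conditions only A and B; 2 further columns, the condition means at 2 to 4 hr, were not used here.

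Condition means were split into whole reads of 4 libraries; the split was tested on simulated data. limma 3.58.1 in R 4.3.3 was fitted on log2 of normalized reads plus 1 in the 3778 split genes. A gene under 20 in 1 condition passes the minimum mean of 20 only through the other condition. Symbols came from a gene name table that named 15002 IDs and left 680 without one; BDGP6 gave arms, order and exon lengths only. Python 3.11.15, numpy 2.4.6, pandas 2.3.3, scipy 1.17.1, numba 0.67.0 and matplotlib 3.10.9 were used.

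Named were Clamp, Xrp1, btd, Pvf2 and kuk; the 12 largest rises and 12 largest falls of called genes, and the 10 and 10 with a mean of at least 500; up to 4 members of each of 52 lists; late-embryo members with the highest means; and neighbouring called genes. Members and lists were chosen with earlier results of these data known. Intervals cover counting error only. Other thresholds, minimum means, scalings, limma and leaving out libraries were tried as alternatives. Promoter sequences were not used here.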

Additional observations from a re-analysis of the deposited data

Results flagged for a closer look

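For each list sum and each named gene with values by library, a library was looked at again when its gap to the nearest of the other 3 libraries of its condition, as a share of the whole range, exceeded Dixon's 95% critical value for 4 samples. This found 21 of 191 groups. The critical value is set for 1 in 20 groups of independent, normally distributed values. Several groups here hold only a few reads, and GILT2 and the GILT sum share theirs, so the count is not set against chance.

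In condition A, library A3 was the high one for late muscle genes at 12786, late epidermis and trachea at 4863, cuticular proteins at 4650.3, cytochrome P450 genes at 2143 (against 1605 to 1671 in the other A libraries) and heat shock and chaperone genes at 171 summed normalized reads. Single genes high in A3 were GstE9 at 84.7, CG14110 at 10.3, CG13856 at 5.16, y at 4.13 and CG13857 at 3.1 normalized reads, the last of which are a few reads. Library A2 was high for eggshell and follicle cell genes at 2639 and for Obp56d at 1.88, and low for pyx at 89.1. Library A4 was high for Spn27A at 951.

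In condition B, library B1 was high for early zygotic genes at 2722, head gap genes at 213 and Hox genes at 208, and for GILT3 at 2.42. Library B2 was high for the GILT sum and for GILT2, both at 25.4, and library B4 for histone locus body genes at 1159.6.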

How the results depend on the processing

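Of the 1417 calls, 258 were at least 2-fold, 153 of the 691 higher and 105 of the 726 lower. At an adjusted p under 0.01 the lower calls numbered 475 and the higher calls 476. An adjusted p under 0.1, no minimum mean or a minimum mean of 100 gave 1746, 1463 and 1324 calls. limma in place of the authors' test called 1307 of the split genes against 629; leaving out each library in turn gave 995 (without A1) to 1717 (without A4), and 597 to 629 of the authors' calls were also made by limma in those fits, a count chosen after seeing the data. The shares called again at 2 to 4 hr were 45.2% and 28.4%, and 83.0% and 81.9% for genes of at least 2-fold at 0 to 2 hr. Dividing the condition means by their sums, or centring on abundant genes, shifted every log2 by 0.01 or less. The calls are the authors' own and were not made again under these scalings. A minimum mean of 100 moved 13 of 50 list medians by more than the spread between libraries and turned the sign of 10. The largest move was of eggshell genes, from -2.0 to 6.4. The odorant-binding protein value went from 4.39 to -1.26 and the late glia value from -1.23 to 0.71. Each of these lists kept a single gene at that minimum, moody in the late glia list, so these are not moves of a family. Of the single genes named, limma did not call Abd-B, mirr and ft with all libraries (adjusted p of 0.15, 0.15 and 0.076) or without A3; Doc1 had 0.048 with all libraries and 0.083 without A3, where the log2 of the 4 genes' means lay between -3.78 and -3.14. No paired analysis was possible because the columns carry no replicate numbers. Library totals in place of the authors' size factors were not run, since totals are unknown. Genes above 1000 normalized reads in a condition have no values by library, which leaves 3259 genes without this check, Clamp, Xrp1 and kuk included.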
